A study of Mus musculus with 6 samples.

Results

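The complement system was followed here through 31 of its genes: the components of the classical, lectin, alternative and terminal pathways, the soluble and membrane-bound regulators, and the receptors. They were taken from a list of gene names fixed with earlier results of these data known, so counts and shares among them are descriptive. All 31 had at least 1 probe on the array, 41 probes in all, and 26 stood among the 25777 genes and transcripts bright enough to be tested. The animals were male ob/ob mice of the strain C57BL/6JHamSlc-ob/ob, which lack functional leptin and become obese. Mice of the propolis group received Brazilian propolis, a plant resin collected by bees, as an ethanol extract at 100 mg/kg by intraperitoneal injection 2 times a week for 12 weeks. Mice of the vehicle group received the carrier, which held low concentrations of DMSO and ethanol, on the same schedule. The stromal vascular fraction of mesenteric fat, which is the cell pellet left after collagenase digestion and red cell lysis, gave RNA for 3 propolis and 3 vehicle arrays. The labels call these biological replicates but give neither the age of the mice nor the number of mice in a sample, so p-values measure the spread between these samples.

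Complement is a chain of plasma proteases and binding proteins. C1, lectin-bound proteases or spontaneous C3 turnover lead to C3 convertases, whose cleavage of C3 tags surfaces for phagocytes and opens the way to a membrane pore. Most circulating complement is made by the liver, while macrophages, fibroblasts, adipocytes and mesothelial cells also make components locally, and host cells carry regulators that stop the cascade.

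Levels are given as log2 intensity relative to the array's own 75th percentile, so 0 is the 75th percentile and 1 unit is a change of 2-fold. A level belongs to its probe, and levels of different genes were not set against each other. Between 61.1% and 66.7% of the spots on an array stood well above background, and no spot was saturated. Slide 1 held propolis 1 and 2 with vehicle 1 and 2, and slide 2 held propolis 3 with vehicle 3. Mean levels of 11 stromal progenitor markers lay between 5.86 and 6.08 on the propolis arrays and between 5.71 and 5.82 on the vehicle arrays, without overlap. Of the 11, 5 had higher means with propolis and 6 lower, with a median difference of -0.11. In 4 (Pdgfrb, Col1a1, Col1a2 and Lum) every propolis array lay above every vehicle array, against 10.8% of all genes. None of the 11 had a limma adjusted p under 0.05. Of 12 macrophage markers, 11 were in the fit, with means between 3.58 and 3.78 on the propolis arrays and between 3.36 and 3.73 on the vehicle arrays. Vehicle 2 stood apart in pancreatic acinar genes (mean level 4.90) and B cell genes, and vehicle 3 in intestinal epithelial genes (mean level 4.73). In whole-fraction RNA, fewer cells of a type and less RNA per cell cannot be told apart.

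Of the 26 tested complement genes, 3 rose with propolis by limma at an adjusted p under 0.05 and none fell: factor I (Cfi), clusterin (Clu) and factor B (Cfb). Cfi entered the fit through the propolis arrays, being above background on 3 of 3 of them and on 1 of 3 vehicle arrays. With only genes above background on all 6 arrays, Cfi was not tested and 2 of 25 complement genes passed, Clu and Cfb. Over all genes and transcripts, 0.834% passed that threshold, 0.722% higher and 0.113% lower. In 10 of the 26, or 38.5%, the groups did not overlap, against 17.4% of all genes. Cfi, kept through its propolis arrays, is among these 10. In all 10 every propolis array lay above every vehicle array, against 10.8% of all genes, and none had the opposite separation, against 6.62%. An unadjusted limma p under 0.05 was found for 10 of the 26, 9 higher and 1 lower, against 11.7% of all genes, 7.24% higher and 4.48% lower. Means were higher with propolis for 20 and lower for 6, with a median difference of 0.41, while the median over all genes was -0.004 and 49.6% of them were higher. The filter on all 6 arrays, which leaves Cfi out, gave an unadjusted limma p under 0.05 for 9 of 25 complement genes. Over all genes it gave 2781 of 23349. Means were then higher with propolis for 19 of the 25. Without vehicle 2 and 3, which leaves 1 vehicle array, Cfi, Clu and Cfb differed by 4.38, 2.56 and 1.52 and none passed (limma adjusted p = 0.220, 0.434 and 0.535). On slide 1 alone none passed either (limma adjusted p = 0.0552, 0.0639 and 0.0935). The plot of differences by role shows where these genes lie in the cascade. Membrane regulators and receptors, with 4 of 9 higher, held 5 of the 6 lower means.

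**Figure D1:**
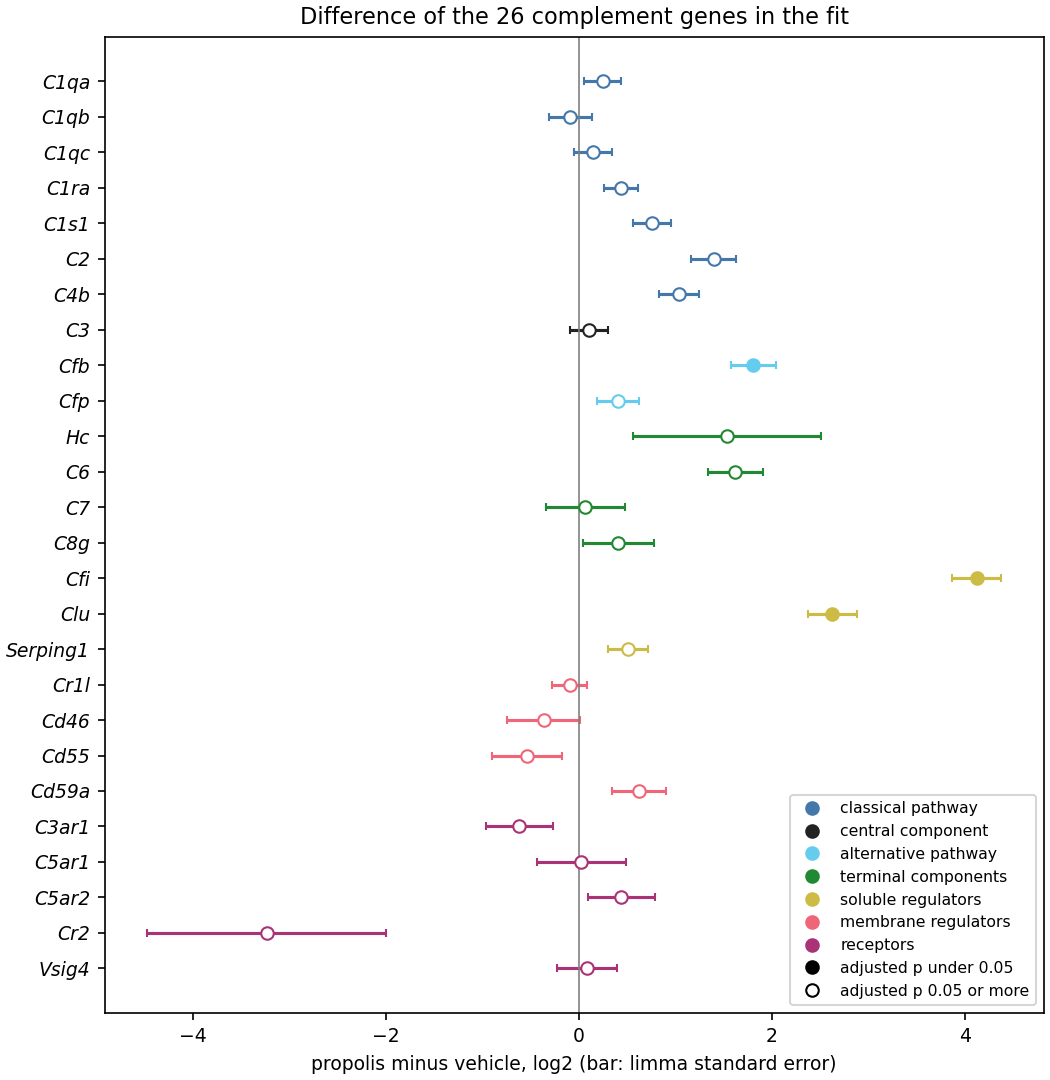
Propolis minus vehicle difference (x axis, log2) of the 26 tested complement genes (y axis, grouped by role), with the limma standard error as a bar. Filled points mark the 3 genes with an adjusted p under 0.05, Cfb, Cfi and Clu, at 1.81, 4.12 and 2.63.

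The classical pathway starts with C1, in which the recognition protein C1q is built from the products of C1qa, C1qb and C1qc and carries the proteases C1r and C1s. All 7 classical genes were tested, 6 had higher means with propolis and 1 a lower mean, and none passed limma's adjusted threshold, with 4 at an unadjusted p under 0.05 (C1ra, C1s1, C2 and C4b). C1qa stood at 5.90, 6.17 and 6.15 on propolis arrays 1 to 3, against 6.02, 5.58 and 5.87 on vehicle arrays 1 to 3. C1qb stood at 5.51, 5.81 and 5.94 with propolis, against 6.11, 5.54 and 5.87 with vehicle. C1qc stood at 6.06, 6.43 and 6.26 with propolis, against 6.34, 5.91 and 6.08 with vehicle. The groups overlapped for all 3 C1q chains, which in tissues are made mainly by macrophages. Their differences were 0.25, -0.09 and 0.14, with limma adjusted p of 0.711 or more.

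The genes for the C1 proteases neighbour each other on chromosome 6. C1ra stood at 5.69, 5.85 and 5.75 with propolis, against 5.42, 5.44 and 5.11 with vehicle. C1s1 stood at 6.95, 6.76 and 7.25 with propolis, against 6.08, 6.23 and 6.38 with vehicle. Neither gene's groups overlapped. The difference was 0.44 ± 0.17 for C1ra (limma SE, adjusted p = 0.404) and 0.76 ± 0.20 for C1s1 (limma SE, adjusted p = 0.189). A second C1ra probe differed by 0.63. Both genes have near-identical copies, C1rb and C1s2, and whether the probes detect both copies was not tested.

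Of the 10 complement genes whose groups did not overlap, 4 had an entry in the RefSeq promoter table used here (GRCm38.p6), which holds 250 bases before each start. Their bases upstream of the gene's outermost start are shown because every propolis array lay above every vehicle array for these genes. None of the 4 passed limma's adjusted threshold, and whether they change together was not tested. Letters searched on both strands were GGANTTTCC (NF-kB core), TTGCNNAA (C/EBP), TTCNNNGAA (STAT), GAAANNGAA (ISRE core) and TGANTCA (AP-1), and no matches overlapped in the 4 genes. Capitals mark a match in the 2 sequences of the C1 proteases, where C1s1 has a C/EBP match and C1ra has none of the 5 motifs.
C1ra, chr6:124512371-124512620, + strand: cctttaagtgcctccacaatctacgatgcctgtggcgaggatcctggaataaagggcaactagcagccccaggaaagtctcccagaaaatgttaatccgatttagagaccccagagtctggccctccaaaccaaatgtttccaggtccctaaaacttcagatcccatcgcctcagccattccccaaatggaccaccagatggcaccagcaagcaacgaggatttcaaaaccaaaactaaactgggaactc
C1s1, chr6:124542393-124542609, - strand: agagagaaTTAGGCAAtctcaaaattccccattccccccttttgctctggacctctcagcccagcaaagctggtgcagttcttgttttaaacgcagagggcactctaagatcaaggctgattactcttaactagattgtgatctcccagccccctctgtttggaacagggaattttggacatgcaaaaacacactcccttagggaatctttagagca
A gene can have more than 1 window, so a share of windows and a count of genes are not directly comparable. The C/EBP letters occur in 9.56% of the 32851 windows of the table and in 4 of the 23 complement genes with a window. These 4 were C1s1, C3, C9 and C5ar2, of which C1s1 alone had separate groups. The STAT letters occur in 7.02% of windows and in 3 of the 23 genes, AP-1 in 6.75% and 2 genes, the ISRE core in 7.13% and 2 genes, and the NF-kB core in 1.07% and 0 genes. A match is a description of the letters and not a binding site.

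C2 and C4 form the classical C3 convertase: C4b binds the surface and the C2 fragment carries the protease. C2 stood at 4.85, 5.08 and 5.40 with propolis, against 3.92, 3.40 and 3.82 with vehicle. C4b stood at 7.36, 7.60 and 7.41 with propolis, against 6.64, 6.52 and 6.10 with vehicle. All propolis arrays lay above all vehicle arrays for both genes. C2 averaged 5.11 ± 0.28 with propolis and 3.71 ± 0.28 with vehicle (SD, n = 3 each), a difference of 1.40 or 2.64-fold with a limma adjusted p of 0.0634, short of the threshold. C4b averaged 7.46 ± 0.13 with propolis and 6.42 ± 0.28 with vehicle (SD, n = 3 each), a difference of 1.03 or 2.05-fold with a limma adjusted p of 0.0996. On slides 1 and 2 the difference was 1.30 and 1.59 for C2 and 0.90 and 1.31 for C4b. The shared direction follows from the separation of the groups. C4a is a close copy of C4b, and whether the probe detects both was not tested.

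The lectin pathway proteases, Masp1 and Masp2, cleave C4 and C2 after mannose-binding lectin or a ficolin has bound sugar. Masp1 stood well above background on 0 of 6 arrays. Masp2 had 3 probes, of which 2 stood above background on 1 array, propolis 3, and the other on none. Neither gene could be compared.

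C3, on whose cleavage all activation routes meet, stood at 8.73, 8.97 and 9.26 with propolis, against 8.90, 8.94 and 8.80 with vehicle. The groups overlapped, with propolis 1 the lowest of all arrays and propolis 3 the highest. The difference was 0.11 ± 0.19 (limma SE, adjusted p = 0.884), and -0.07 on slide 1. A second C3 probe differed by 0.40.

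In the alternative pathway, factor B is the protease subunit that pairs with C3b, and properdin holds this convertase together. Cfb stood at 5.97, 6.12 and 5.77 with propolis, against 4.43, 3.77 and 4.23 with vehicle. The lowest propolis array lay well above the highest vehicle array. Cfb averaged 5.95 ± 0.17 with propolis and 4.14 ± 0.34 with vehicle (SD, n = 3 each). It rose by 1.81 ± 0.23, or 3.50-fold, with propolis (limma SE, adjusted p = 0.0320), and by 1.94 on slide 1 and 1.54 on slide 2. Leaving out any 1 of the 6 arrays took the adjusted p to between 0.0649 and 0.136, so the call rests on all of them. With slide as a block, a fit in which 1.21% of all genes passed, the limma adjusted p was 0.0443. With no filter on dim probes it was 0.0594. The properdin gene Cfp stood at 5.62, 6.11 and 5.77 with propolis, against 5.46, 5.19 and 5.64 with vehicle, with 1 propolis array below the highest vehicle array. Its difference was 0.40 ± 0.21 (limma SE, adjusted p = 0.557).

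Cfb and C2 are neighbours on chromosome 17, with no protein-coding gene between them in the RefSeq annotation used here. In that annotation 5 such genes separate Cfb from C4b, and C4a is not among them. The 3 complement genes here had separate groups and differences of 1.81, 1.40 and 1.03. Of the 5 genes between, Cyp21a1, a steroid hydroxylase gene, differed by 0.55 with separate groups and a limma adjusted p of 0.358. Stk19, Dxo, Skiv2l and Nelfe differed by -0.12, -0.05, -0.31 and 0.004, with overlapping groups.

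**Figure D2:**
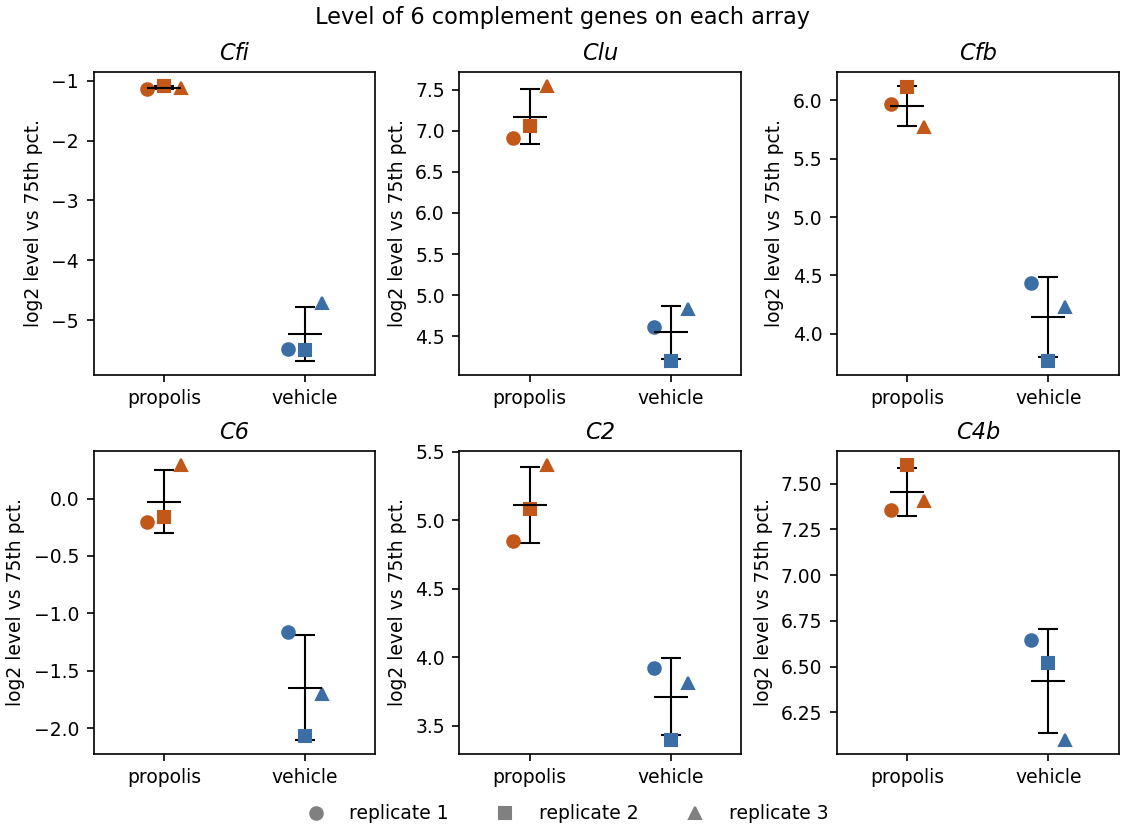
Level (y axis, log2 intensity relative to the array's 75th percentile) on each array for the 6 complement genes with the lowest p, with group means and SDs as bars and replicate numbers as symbols. In every panel the 3 propolis arrays lie above the 3 vehicle arrays, for Cfb between 5.77 and 6.12 against 3.77 to 4.43.

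The terminal components C5 (gene Hc) to C9 assemble into the membrane attack complex, a pore in the target membrane. Of 7 such genes, 4 were tested, all with higher means in the propolis group, and none passed limma's adjusted threshold, with C6 alone at an unadjusted p under 0.05. C6, the component that joins the C5 fragment C5b, stood at -0.21, -0.16 and 0.29 with propolis, against -1.16, -2.07 and -1.70 with vehicle. The groups did not overlap. C6 averaged -0.03 ± 0.28 with propolis and -1.65 ± 0.46 with vehicle (SD, n = 3 each), a difference of 1.62 or 3.07-fold with a limma adjusted p of 0.0751. It was 1.43 on slide 1 and 1.99 on slide 2. The bases before its start, given here because C6 was the terminal gene whose groups stood apart, hold none of the 5 motifs.
C6, chr15:4726960-4727066, + strand: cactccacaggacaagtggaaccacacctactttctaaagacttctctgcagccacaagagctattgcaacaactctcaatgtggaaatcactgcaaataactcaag

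C7, which follows C6 into the complex and lies 1 gene away from it on chromosome 15, stood at -1.25, -0.38 and 0.37 with propolis, against -0.70, -0.29 and -0.46 with vehicle. The propolis arrays spread on both sides of the vehicle arrays. The difference was 0.07 ± 0.41 (limma SE, adjusted p = 0.968), and a second probe differed by 0.48. C8g, the small chain of C8, stood at -2.24, -1.39 and -0.88 with propolis, against -2.22, -1.73 and -1.78 with vehicle. The groups overlapped, with a difference of 0.41 ± 0.37 (limma SE, adjusted p = 0.753), and a second probe differed by 0.03. The genes for the other C8 chains, C8a and C8b, stood above background on 0 of 6 arrays, and C9, which forms the ring of the pore, on propolis 1 only.

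Hc, which encodes C5, stood at -4.21, -3.19 and -0.18 with propolis, against -4.01, -3.87 and -4.29 with vehicle. A single array, propolis 3, was high, and propolis 1 lay inside the vehicle range. The difference was 1.53 ± 0.98 (limma SE, adjusted p = 0.642), 0.24 on slide 1 and 4.11 on slide 2. The mean of the hepatocyte marker list was highest on the same array. Its 8 genes, all in the fit, averaged -2.19, -2.65 and -0.11 with propolis, against -3.54, -3.39 and -1.70 with vehicle. Not every gene of the list followed: Apoa1 stood at -3.15 on propolis 3 and at 4.45 on vehicle 3, the array high in intestinal epithelial genes. The Apoa1 level is part of the vehicle 3 list mean of -1.70, and the part of intestinal RNA in it was not tested. Tat stayed between -1.99 and -1.02 over the arrays. Albumin (Alb) stood at 1.42 on propolis 3, against -2.55 and -2.26 on the other propolis arrays and -2.67, -4.10 and -3.86 with vehicle. The part of hepatocyte RNA in the Hc value was not tested.

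Among the soluble regulators, factor I cleaves C3b and C4b, clusterin binds terminal complexes and works as an extracellular chaperone, and Serping1 encodes the C1 inhibitor. All 3 had higher means with propolis and separate groups, against 10.8% of all genes separate and higher. Of the 3, 2 passed the adjusted threshold as higher, against 0.722% of all genes. One of these 2, Cfi, entered the fit through the propolis arrays. Cfi stood at -1.13, -1.09 and -1.12 with propolis, against -5.49, -5.50 and -4.72 with vehicle. The 3 propolis arrays lay within 0.05 of each other, far above the vehicle arrays, of which vehicle 3 alone was above background. Cfi averaged -1.11 ± 0.02 with propolis and -5.24 ± 0.45 with vehicle (SD, n = 3 each). It rose by 4.12 ± 0.25 with propolis, or 17.4-fold (limma SE, adjusted p = 0.00652), a size that rests on vehicle values of which 2 of 3 were not well above background.

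With the 2 dim vehicle arrays raised to the lowest level measured well above background there, the Cfi difference was 3.99 or 15.9-fold. With normexp applied to the median spot signals, with an offset of 50, it was 1.89 with a limma adjusted p of 0.00553. That alternative changed the signal, the background correction and the offset together, and their parts were not tested. The difference was 4.38 on slide 1 and 3.60 on slide 2, and the adjusted p with slide as a block was 0.0141. Without propolis 2 the adjusted p was 0.0509, and without any other single array it stayed under the threshold.

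Clu stood at 6.91, 7.06 and 7.55 with propolis, against 4.61, 4.20 and 4.83 with vehicle. The groups were separated by more than 2 units. Clu averaged 7.17 ± 0.33 with propolis and 4.54 ± 0.32 with vehicle (SD, n = 3 each), and rose by 2.63 ± 0.26 or 6.18-fold (limma SE, adjusted p = 0.0172). The difference was 2.58 on slide 1 and 2.72 on slide 2, with an adjusted p of 0.0173 with slide as a block. Clu passed the threshold without propolis 3 and missed it without any other single array, and its adjusted p over the 6 such fits lay between 0.0450 and 0.0866. Serping1 stood at 7.21, 7.29 and 7.67 with propolis, against 6.75, 6.76 and 7.13 with vehicle, with no overlap. Its difference was 0.51 ± 0.21 (limma SE, adjusted p = 0.425), and a second probe differed by 0.45.

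Mesothelial cells cover the mesentery, and 9 of their 10 markers had higher means with propolis. The list averaged 2.09, 1.56 and 2.47 on the propolis arrays, against 0.98, -0.32 and 1.57 on the vehicle arrays, so the means overlapped narrowly. Vehicle 3, the array high in intestinal epithelial genes, was also high in the keratins of the list, with Krt8 at 4.74, Krt18 at 4.06 and Krt19 at 5.24. For Msln, Upk1b, Wt1, Bnc1 and Lrrn4 every propolis array lay above every vehicle array. Wt1, a mesothelial transcription factor, rose by 1.98 and Bnc1, an epithelial zinc finger factor, by 2.87 (limma adjusted p = 0.0320 and 0.0299). Adipocyte markers were lower with propolis in 8 of 8 genes, 4 of them with separate groups, and averaged 0.60, 1.09 and 1.60 on the propolis arrays, against 1.54, 2.02 and 2.59 on the vehicle arrays. Endothelial markers were lower in 6 of 6 genes and averaged 1.58, 1.11 and 2.05 with propolis, against 2.29, 1.98 and 2.39 with vehicle. Group means overlapped for both lists and none of their genes passed limma's threshold, with 4 and 1 at an unadjusted p under 0.05. The part of mesothelial, stromal, adipocyte or endothelial RNA in the values of Cfi, Clu, Cfb and the other complement genes was not tested.

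**Figure D3:**
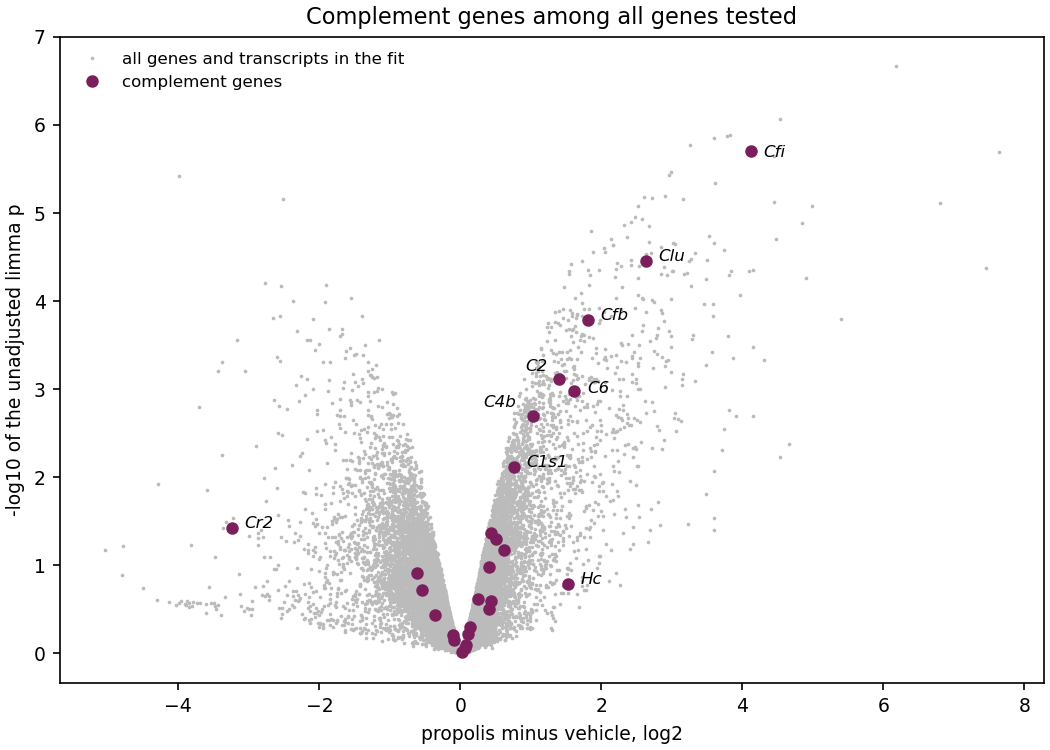
Difference (x axis, propolis minus vehicle, log2) and strength of the test (y axis, -log10 of the unadjusted limma p) for the 25777 genes and transcripts in the fit (grey) and the 26 complement genes (purple). Cfi, Clu and Cfb stand at the upper right, while Cr2 is low at -3.24 with a weak p.

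Membrane regulators protect host cells: CD55 and Crry (gene Cr1l) break up or block convertases, CD46 is a cofactor for factor I, and CD59 stops the terminal pore. None of the 4 genes passed limma's threshold, 0 had an unadjusted p under 0.05, and 3 had lower means with propolis. Cr1l stood at 4.16, 3.82 and 3.74 with propolis, against 4.11, 3.998 and 3.90 with vehicle. Cd55 stood at 2.92, 3.94 and 3.45 with propolis, against 3.81, 4.57 and 3.55 with vehicle. Cd46, which in mice is known mainly from testis, stood at -5.16, -4.36 and -5.08 with propolis, against -3.87, -4.53 and -5.10 with vehicle. The groups overlapped for these 3 genes, with differences of -0.10, -0.54 and -0.36 and limma adjusted p of 0.667 or more. Cd46 was dim: the lowest level measured well above background lay between -5.82 and -5.26 over the arrays. With normexp on the median signals the Cd46 difference was -0.15.

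Cd59a was the membrane regulator with a higher mean, at 1.14, 1.34 and 1.43 with propolis, against 0.86, 0.12 and 1.07 with vehicle. The groups did not overlap, but propolis 1 and vehicle 3 lay close together. The difference was 0.62 ± 0.28 (limma SE, adjusted p = 0.470). The bases before its start, given because Cd59a is the membrane regulator whose groups stood apart, hold an ISRE core match in capitals.
Cd59a, chr2:104095551-104095752, + strand: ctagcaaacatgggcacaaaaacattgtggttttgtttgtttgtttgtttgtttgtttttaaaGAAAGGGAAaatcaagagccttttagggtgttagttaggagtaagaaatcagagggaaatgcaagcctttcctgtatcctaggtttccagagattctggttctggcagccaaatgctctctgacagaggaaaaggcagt

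The anaphylatoxin receptors bind the small fragments C3a and C5a. C3ar1, the C3a receptor, stood at 0.48, 1.20 and 1.39 with propolis, against 1.80, 1.10 and 2.03 with vehicle. C5ar1, the main C5a receptor, stood at 2.95, 1.81 and 1.30 with propolis, against 2.51, 1.68 and 1.79 with vehicle. C5ar2, the second C5a receptor and a neighbour of C5ar1 on chromosome 7, stood at 2.06, 2.19 and 1.18 with propolis, against 1.84, 1.22 and 1.05 with vehicle. The groups overlapped for all 3 receptors, with differences of -0.62, 0.03 and 0.44 and limma adjusted p of 0.582 or more. Vsig4, a macrophage receptor for C3b, stood at 3.52, 3.42 and 2.76 with propolis, against 3.66, 3.00 and 2.80 with vehicle. These groups overlapped too, and the difference was 0.08 ± 0.32 (limma SE, adjusted p = 0.948).

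Cr2 encodes complement receptors 2 and 1 of mouse B cells and follicular dendritic cells. It stood at -3.30, -2.56 and -1.94 with propolis, against 0.79, 3.15 and -2.03 with vehicle. Vehicle 1 and 2 were high, while vehicle 3 lay among the propolis arrays. The difference was -3.24 ± 1.24 (limma SE, unadjusted p = 0.0377, adjusted p = 0.385), which did not pass the threshold. It was -4.90 on slide 1 and 0.09 on slide 2, and -1.98 without vehicle 2. A second probe differed by -1.88.

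B cell markers were high on the same arrays as Cr2. Of 9 such markers, 8 were in the fit, all with lower means in the propolis group. None passed limma's threshold, and 2 had an unadjusted p under 0.05. The list averaged -2.90, -2.53 and -1.79 with propolis, against -0.49, 1.31 and -2.11 with vehicle. Ms4a1, which encodes CD20, stood at -1.89, -1.59 and -1.31 with propolis, against 1.53, 3.68 and -1.39 with vehicle. Follicular dendritic cell markers, 4 of 5 in the fit, had lower means with propolis in 3. They averaged 1.20, 0.11 and 0.27 with propolis, against 1.69, 1.18 and 1.01 with vehicle, with propolis 1 above vehicle 2 and 3. Madcam1 differed by -1.13 with separate groups and Cxcl13 by -2.06 with overlapping groups (limma adjusted p = 0.250 and 0.482). Mfge8 differed by -0.56 and Tnfsf11, the gene with a higher mean, by 0.68, both with overlapping groups. The part of B cell and follicular dendritic cell RNA in the Cr2 value was not tested.

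**Figure D4:**
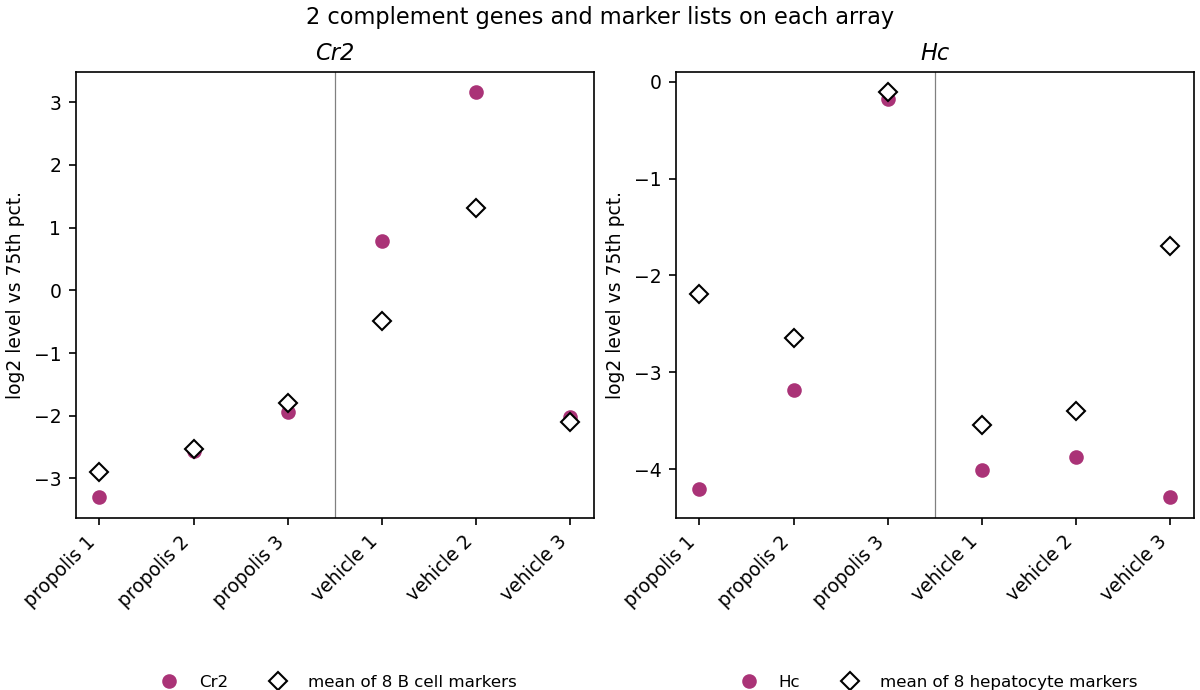
Levels (y axis, log2 intensity relative to the array's 75th percentile) on each array (x axis) of Cr2 with the mean of 8 B cell markers, and of Hc with the mean of 8 hepatocyte markers. Cr2 and the B cell markers are highest on vehicle 2, at 3.15 and 1.31, and Hc and the hepatocyte markers on propolis 3, at -0.18 and -0.11.

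The 2 slides gave 2 sets of differences for each gene. Of the 26 tested complement genes, 19 had the same direction on both, 16 higher and 3 lower with propolis, or 73.1%, against 53.1% of all genes. The 10 genes with separate groups are among the 16, which follows from that separation. Cfi, which entered the fit through the propolis arrays, is among them. The second slide compares 1 array with 1, so it has no spread of its own.

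**Figure D5:**
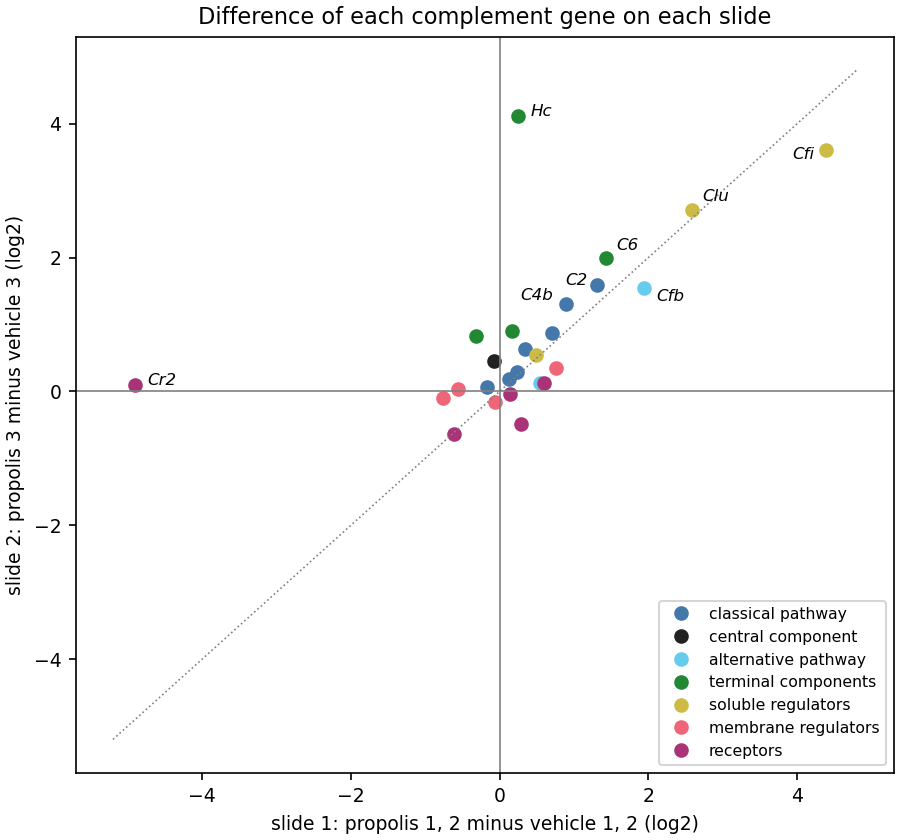
Difference between propolis and vehicle (log2) of the 26 complement genes on slide 1 (x axis, 2 arrays against 2) and on slide 2 (y axis, 1 array against 1), with equality as a dotted line. Cfi lies at 4.38 and 3.60 and Clu at 2.58 and 2.72, near the line, while Hc (0.24 and 4.11) and Cr2 (-4.90 and 0.09) lie far from it.

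Other genes of the pathway, 30 in a list of initiators, copies of the genes above, integrin receptors and further regulators, were read from the same fit, and 29 had a probe. Of the 23 tested, 13 had higher means with propolis and 10 lower, with a median difference of 0.08. One passed the threshold: Itgax, which encodes the CD11c chain of complement receptor 4, fell by 2.18 with propolis (limma adjusted p = 0.0405), a call that was lost when any 1 array was left out. Among those with the next lowest p were C1s2, Csmd1, Itgb2 and Cd93, none of which passed. C1s2, the copy of C1s1, stood at 6.92, 7.02 and 7.15 with propolis, against 6.32, 6.42 and 6.36 with vehicle, a difference of 0.66 with separate groups (limma adjusted p = 0.157). The difference was -1.01 for Csmd1, a complement inhibitor with CUB and sushi domains. Csmd1 stood at -6.34 and -6.03 on propolis 1 and 2, under the lowest level measured well above background there, -5.82 and -5.41. Its difference thus rests partly on values not well above background. Differences were -0.63 for Itgb2, the shared chain of complement receptors 3 and 4, and -0.54 for Cd93, once described as a C1q receptor.

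Cytokines known to raise complement gene expression were read as well, 5 of 6 being bright enough to test. Il6 stood at 2.90, 1.38 and 1.86 with propolis, against 1.63, -0.82 and -0.20 with vehicle, and propolis 2 lay below vehicle 1. Its difference was 1.84 (limma adjusted p = 0.381). Il1b differed by 1.19, Osm by 0.63, Tnf by -0.46 and Ifng by -0.30, and none of the 5 passed the threshold, with Il6 alone at an unadjusted limma p under 0.05.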

How the data were processed

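Per the file headers, Agilent Feature Extraction 10.7.3.1 read the scans, 1 dye on each array. The deposited processed signal is a background-corrected intensity on a linear scale. The authors' deposited series table holds log2 values shifted towards each array's 75th percentile, with array medians between -3.97 and -3.62, and served as an alternative.

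Here, non-uniform spots were left out, spots of a probe averaged, log2 taken and the 75th percentile over non-control probes subtracted. Probes well above background on at least 3 of 6 arrays were kept (34786 of 55681), and the brightest stood for its gene. Names came from RefSeq accessions through a GRCm38.p6 table. The propolis and vehicle arrays were fitted in limma 3.58.1 (R 4.3.3; lmFit, eBayes), with Benjamini-Hochberg adjustment over all 25777 features and a threshold of 0.05. An exact permutation test of 3 against 3 cannot give a p below 0.1.

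In simulated data for the propolis and vehicle comparison, with 25777 genes and 10 simulations, the share recovered was 6.72% for changes of 2-fold, 56.1% for 4-fold and 83.9% for 16-fold. The number of arrays limits precision. Replicate numbers were not taken as pairs. Members and lists were chosen with earlier results of these data known. All members are named with their values; of other complement genes, those past the threshold and the 6 with the lowest p, of which 1 is not reported here, and all cytokines tested. Alternatives covered background, scaling, filter, probe choice, slide, arrays left out and variance model.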

Additional observations from a re-analysis of the deposited data

How the results depend on the processing

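The count of complement genes passing the limma threshold, 3, was 3 with slide as a block, quantile normalization, array medians, the mean of a gene's probes and the series table. It was 4 with normexp, where C2 passed (1.43, adjusted p = 0.0396), and 5 with a variance trend and robust fit, where C2 and C4b passed. It was 2 without a filter, where Cfb had an adjusted p of 0.0594, and 2 with a filter on all 6 arrays, where Cfi was not tested. It was 0 on slide 1 alone and 0 without vehicle 2 and 3 together. Leaving out 1 array gave 0 to 2. The other complement genes passing, 1, became 0 in these last settings, without a filter, and on leaving out any 1 array (0 to 0). All genes passing, 215, became 106 without a filter, 0 on slide 1 alone (5856 at an unadjusted limma p under 0.05), 0 without vehicle 2 and 3 (1362), and 11 to 94 with 1 array left out.

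Deviations of same-numbered samples correlated at 0.04, 0.29 and 0.14, and those of differently numbered samples at between -0.31 and 0.21. These values do not settle whether same-numbered samples form pairs. With the replicate number as a block, 73 genes passed, among them Cfi and Clu (2 complement genes) and 0 of the other complement genes, and Cfb had an adjusted p of 0.0853.

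Direction turned only in genes that never passed. On slide 1 alone C3 was -0.072 and C7 -0.31. Without vehicle 2 and 3 together C1qc was -0.089, C5ar1 -0.49, C5ar2 -0.028 and Vsig4 -0.42. With quantile normalization C5ar1 was -0.047. With 1 array left out, C1qb ran between -0.24 and 0.043, C3 between -0.029 and 0.23, C7 between -0.33 and 0.48, C5ar1 between -0.44 and 0.38, and Vsig4 between -0.091 and 0.33. No cause was tested.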
